A study of Homo sapiens with 9 samples.

Results

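A core of gene promoters was among the strongest accessible sites in every library of the series, and this core is described here. The regions were found from the 50000 peaks with the highest −log10 p in each of the 9 peak lists, on chromosomes 1 to 22 and X. Peaks of the 9 lists that overlapped by at least 1 bp were merged into 105878 regions. A region was kept when it was found in all 9 lists, was shorter than 2.5 kb and had its midpoint within 1 kb of the start site of a protein-coding transcript. This gave 7961 constitutive promoter regions. They were therefore chosen by measured peak strength in all 9 libraries, and their presence and their generally high rank are a description rather than a result. The rule used no difference between genotypes. Of the other regions found in all 9 lists, 11039 under 2.5 kb lay farther from a start site and are called distal regions, and 254 measured 2.5 kb or more.

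ATAC-seq libraries were made from K562, an established human cell line of chronic myeloid leukaemia. The assay uses Tn5 transposase to cut open DNA and tag it with adapters. The 3 genotypes, with 3 libraries each, were parental wild type cells without a STAG2 mutation, a CRISPR-Cas9 edited line heterozygous for STAG2 R614* (+/-) and an edited line homozygous for it (-/-). STAG2 is a subunit of cohesin, the ring complex that holds sister chromatids together and shapes chromatin loops. Each genotype was 1 line, the titles of the homozygous libraries call that line null, and the homozygous cells grew attached and were detached with trypsin. Genotype, line and attached growth cannot be told apart in these data, and whether the 3 libraries of a genotype came from separate cultures is not stated, so the spread between them may be technical.

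Active promoters keep a nucleosome-poor stretch at the start site, where general transcription factors and RNA polymerase II assemble. Most housekeeping promoters lie in CpG islands, which are rich in GC and in unmethylated CpG, and they bind factors such as ETS proteins, SP and KLF proteins, NRF1, NFY and YY1. They are open in most cell types, whereas distal enhancers are open in few.

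Sequences of 8 of the regions are printed here (GRCh37, 5′ to 3′ on the strand of the gene), because the results below turn on them. Each is 150 bases long. Capitals mark exact matches, on either strand, to 12 short motifs of promoter and enhancer factors. The first 3 regions were higher in the homozygous libraries. The KDM2A sequence (chr11:66886584-66886733, + strand) ends just upstream of the start site and held no match. Those of CGN (chr1:151483713-151483862, + strand) and EIF2S2 (chr20:32700050-32700199, − strand) also end at the start site, and held the SP and KLF motif 2 times and 1 time.
KDM2A: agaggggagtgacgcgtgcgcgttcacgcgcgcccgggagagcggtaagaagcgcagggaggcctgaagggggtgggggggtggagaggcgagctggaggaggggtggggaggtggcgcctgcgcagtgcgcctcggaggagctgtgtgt
CGN: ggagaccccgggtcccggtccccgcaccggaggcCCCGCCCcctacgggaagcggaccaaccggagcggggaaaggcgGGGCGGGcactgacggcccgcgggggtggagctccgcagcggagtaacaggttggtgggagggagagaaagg
EIF2S2: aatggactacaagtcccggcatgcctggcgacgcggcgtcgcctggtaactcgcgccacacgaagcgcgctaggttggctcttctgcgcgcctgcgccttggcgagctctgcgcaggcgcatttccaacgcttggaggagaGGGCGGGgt

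The next 2 regions were lower in the homozygous libraries. The GIMD1 sequence (chr4:107290588-107290737, − strand) is the middle of a region whose midpoint lies 728 bp from the start site, and held 1 AP-1 motif. The LINS1 sequence (chr15:101137142-101137291, − strand) is upstream of the start site and held no match.
GIMD1: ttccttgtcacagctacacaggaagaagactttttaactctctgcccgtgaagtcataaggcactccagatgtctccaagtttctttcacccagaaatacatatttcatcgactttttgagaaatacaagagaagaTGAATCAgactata
LINS1: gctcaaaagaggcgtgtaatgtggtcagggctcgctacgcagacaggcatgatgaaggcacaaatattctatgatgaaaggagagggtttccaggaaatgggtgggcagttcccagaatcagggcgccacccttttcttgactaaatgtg

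The last 3 regions were near the top of every list, and all 3 sequences lie upstream of a start site. MOSPD2 and FANCB start on opposite strands of 1 region (chrX:14891393-14891542, + strand), which held an ETS and an NFY motif. ING3 (chr7:120591020-120591169, + strand) held 1 SP and KLF motif, and INTS4 (chr11:77705762-77705911, − strand) held 1 ETS motif.
MOSPD2: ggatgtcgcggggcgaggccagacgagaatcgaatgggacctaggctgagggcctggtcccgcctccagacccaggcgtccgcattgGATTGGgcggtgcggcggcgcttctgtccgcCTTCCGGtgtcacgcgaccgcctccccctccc
ING3: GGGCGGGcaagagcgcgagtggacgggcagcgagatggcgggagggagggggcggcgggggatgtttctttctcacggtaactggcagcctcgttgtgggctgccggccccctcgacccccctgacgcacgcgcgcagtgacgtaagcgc
INTS4: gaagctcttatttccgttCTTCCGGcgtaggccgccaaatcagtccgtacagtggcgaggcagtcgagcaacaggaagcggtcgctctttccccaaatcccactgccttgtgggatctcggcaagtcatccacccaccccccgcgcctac

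The strength of a region in a library is given as the percentile of the −log10 p of its highest peak among the 50000 peaks of that list, so that 100 is the strongest peak. The lists held 181407 to 319697 peaks, and the 50000th peak had a −log10 p of 4.95 to 6.73. The files hold no read counts, so the depth behind each value is unknown. Some lists were not independent. WT library 3 and heterozygous library 1 had exactly the same interval at 7.51% of the promoter regions and a Pearson correlation of 0.886 across them. WT libraries 1 and 2 shared 1.31% (0.823), and heterozygous libraries 2 and 3 shared 0.298% (0.692). The other 33 pairs of lists shared 0.0357% to 0.180%, with correlations of 0.443 to 0.631. These correlations are across regions, which are not independent. Of 13 K562 and erythroid marker genes, 8 had a peak at a start site among the 50000 strongest of every list, among them TAL1, GFI1B, HBG1 and HBG2. GATA1, KLF1 and ALAS2, defining genes of the erythroid lineage, had one in 0 of the 9. In the full lists they had a weaker peak in 8, 4 and 6. Of the 21 markers of other cell types, COL1A1, COL1A2 and EPCAM had such a peak in all 9 lists, and all 4 B cell markers had it in 0. Of the T cell, monocyte and hepatocyte markers 0 had it in all 9, but single genes of each type had it in up to 7.

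The promoter regions covered 8768 of 19748 protein-coding genes (44.4%), and 430 genes had more than 1. At 1042 regions (13.1%) genes started on both strands within 1 kb of the midpoint, as at divergent gene pairs. The midpoint lay a median of 103 bp from the nearest start site, and 47.2% of midpoints lay upstream of it. The median width was 1539 bp, against 1011 bp for distal regions. Promoters were found in every list more often than other regions: 55.6% of the promoter regions under 2.5 kb were in all 9 lists, against 17.99% of all regions under 2.5 kb. At the edges of the rule, the regions at SLC40A1, IER5 and RAP1GDS1 were 2499, 2498 and 2497 bp wide and counted, while those at ATXN7L3B, ZBTB10 and ABCB8 were 2501, 2504 and 2505 bp wide and did not. The midpoints at LSMEM1, UTRN and PRRC2C lay 998, 997 and 997 bp from a start site, and those just outside, at PKD2, GJA10 and FOXL3, lay 1004, 1004 and 1005 bp away. JAZF1, MTLN and NRP2 counted with a lowest percentile of 0.031, 0.043 and 0.056, whereas PON3, DCLK1 and MAGEB1 did not count because homozygous library 2, heterozygous library 2 and homozygous library 3 lacked them. Of 629 promoter regions found in 3 lists, 109 were in the 3 homozygous lists, 6 in the 3 WT and 3 in the 3 heterozygous lists. Of 577 found in 6 lists, 94 were missing from the homozygous, 10 from the WT and 8 from the heterozygous lists. Intervals shared between some WT and heterozygous lists were not corrected for, and these counts were not tested. They were made for promoter regions only, among 9316 and 5718 regions under 2.5 kb found in 3 and 6 lists. Whether promoters differ in this from other regions is therefore not shown.

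The promoter regions were rich in GC and CpG, neither of which the rule used. The central 500 bp had a median GC content of 67.0% and an observed over expected CpG ratio of 0.826, against 48.4% and 0.257 in distal regions. In windows from 250 bp upstream to 50 bp downstream of the start site, 87.8% of the constitutive promoters were CpG-rich (over 50% GC and a ratio over 0.6). The share was 65.6% over all 19819 protein-coding gene identifiers and 33.1% over the 6438 without a promoter region in any list.

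Motifs of promoter factors were more frequent in these windows, and motifs of tissue-specific promoters and enhancers less so. Both strands were searched for exact matches, and matches to different motifs may overlap. The ETS motif CCGGAAG was in 20.8% of the constitutive promoters, 14.1% of all promoters and 4.21% of promoters without a region. For the SP and KLF motif GGGCGGG the shares were 59.6%, 47.3% and 28.0%, and for the NFY motif CCAATC they were 22.3%, 18.2% and 14.4%. The YY1 motif AANATGGCG stood at 7.22%, 5.02% and 1.09%, and the NRF1 motif GCGCATGCG at 3.97%, 2.72% and 0.869%. The TATA-box TATAAA went the other way, with 3.98%, 9.65% and 17.8%. So did the GATA motif AGATAA (4.15%, 7.14% and 10.98%) and the AP-1 motif TGANTCA (3.61%, 5.41% and 7.92%). The first part of the CTCF motif, CCANNAGGG, was in 6.08%, 6.61% and 7.53%. GC content differs between these sets of windows, and its part in the motif shares was not tested. A match is only a run of letters and was not shown to be bound.

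Promoter regions varied less between libraries than distal regions. The range over the 9 libraries had a median of 34.7 points, against 49.6 points for distal regions. It was under 10 points at 670 promoter regions (8.42%) and at 3.61% of distal regions. In all 9 libraries 454 promoter regions (5.70%) were above the 90th percentile, against 3.01% of distal regions. A region near the top of a list has little room to move, and the median range was 10.3 points in promoters with a mean percentile of 90 to 100 and 57.2 points in those of 25 to 50.

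The 6 promoters whose lowest percentile was highest were those of KIAA1217, PNPLA6 (a phospholipase), PEX5L, MOSPD2 with FANCB (FANCB is a subunit of the Fanconi anaemia core complex), ING3 (a subunit of a histone acetyltransferase complex) and INTS4 (an Integrator subunit). KIAA1217 lay between 99.9 and 100.0 in the 9 libraries, with a fold enrichment, as the authors' caller gave it, of 28.6 in the WT mean, 26.8 in the heterozygous and 30.9 in the homozygous. INTS4 stood between 99.0 and 99.9 with fold enrichments of 16.1, 16.7 and 12.7, and ING3 between 99.1 and 99.9 with 7.79, 9.34 and 9.15. Their percentiles were alike although the fold enrichments were 28.6 and 7.79 in WT at KIAA1217 and ING3. Among promoters of middle strength, GIGYF2, a regulator of translation, varied least: WT was 66.3, 66.2 and 63.8, heterozygous 64.2, 66.7 and 63.5, and homozygous 73.0, 69.7 and 70.0. DLX1, NT5DC3, CCNI, DERA and DEPDC7 followed, with ranges of 10.4 to 12.6 points. The difference between homozygous and WT at these 6 lay between −8.06 and 5.43 points, and 0 of them passed the test described next.

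**Figure D1:**
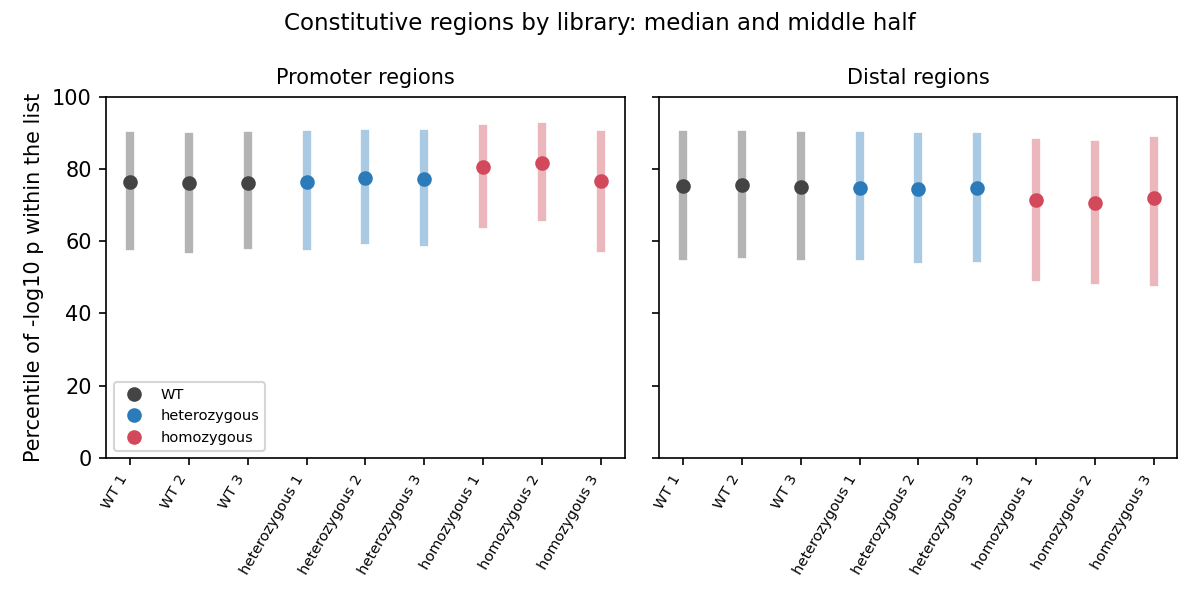
Percentile of −log10 p within each list (vertical axis) for the 7961 promoter regions and the 11039 distal regions, 1 position per library, with the median as a point and the interquartile range as a bar. Promoter medians were 76.1 to 77.4 in the 6 WT and heterozygous libraries and 80.6, 81.5 and 76.7 in the homozygous libraries, whose distal medians of 70.4 to 72.0 were below the other 6.

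The comparison of homozygous cells with WT asks whether loss of intact STAG2 goes with a change in promoter accessibility. Promoters as a class ranked slightly higher in the homozygous libraries and distal regions lower. The median promoter percentile was 76.5, 76.1 and 76.2 in the WT libraries and 80.6, 81.5 and 76.7 in the homozygous. Homozygous library 3 lay close to the WT libraries and below heterozygous libraries 2 and 3 (77.4 and 77.1). Homozygous libraries 1 and 2 lay above all WT and heterozygous libraries. Over the promoter regions the difference in mean percentile, homozygous minus WT, had a median of 1.66 points (interquartile range −5.71 to 11.3), against −3.80 for distal regions and −0.769 over all 19254 regions. This small median changed sign to −1.02 when percentiles were corrected for GC content and to −0.153 with the 20000 strongest peaks, so its sign depended on the setting. The GC correction subtracts, in each library, the median of all regions of like GC content. Promoters had 67.0% GC and distal regions 48.4%, so it also takes out part of any shift that promoters share. GC-corrected medians over promoters, here and below, therefore cannot tell GC content from being a promoter. The library with the shortest list, homozygous library 1, and homozygous library 2 also had fewer joined windows per promoter region, 3.43 and 3.39 on average against 3.58 to 4.01 in the other 7. Corrected for the number of joined windows, a setting chosen after seeing the data, the median was 0.736 points, and over the 78 promoters with the same number in all 9 lists it was 0.949.

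At single promoters, few differences stood out from the spread. In limma fitted to the percentiles of all 19254 regions found in all 9 lists, 15 promoter regions (0.188%) had a Benjamini-Hochberg adjusted p under 0.05 for homozygous against WT, 5 higher and 10 lower. Over all 19254 regions the share was 0.649% (125 regions), above the share of promoters, and over distal regions it was 0.996%. The median standard error of a difference was 9.77 points. Each standard error (SE) here and below comes from the limma fit of all 9 libraries, which draws the spread of a region toward a trend. It is not the spread of the 3 and 3 compared libraries alone, and it treats lists that share intervals as independent. The adjusted p of the 15 lay between 0.0321 and 0.0497, close to the threshold, and the calls changed with the libraries used. Leaving out any 1 of WT libraries 1 and 2 or the 3 heterozygous libraries gave 0, and so did treating lists that share intervals as a block (correlation 0.828). Leaving out WT library 3 gave 8, none of them among the 15, against 32 over all 19254 regions. Leaving out homozygous library 1, 2 or 3 gave 39, 35 and 47, of which 38, 32 and 40 were lower. Over all regions these gave 281, 257 and 362. On normal scores in place of percentiles 70 were called, 47 higher and 23 lower, against 423 over all regions. With library medians subtracted 14 were called, 7 higher and 7 lower, against 128. Without a mean-variance trend in limma 91 were called, 61 higher and 30 lower, against 341. All 15 kept their sign in each setting in which they were fitted.

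**Figure D2:**
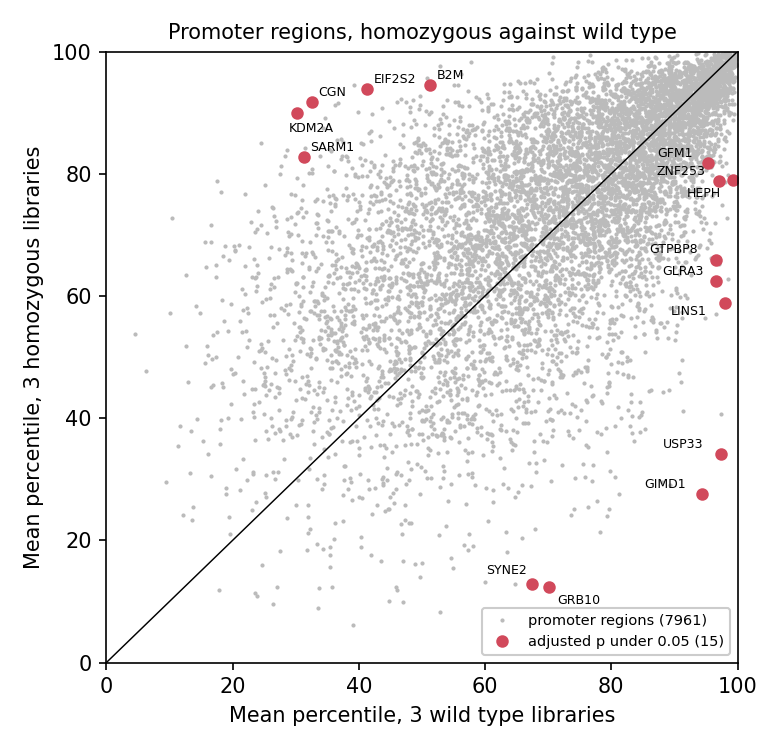
Mean percentile in the 3 WT libraries (horizontal axis) and in the 3 homozygous libraries (vertical axis) for each of the 7961 promoter regions in grey, with the line of equality. The 15 regions with an adjusted p under 0.05 are in red with their gene names, 5 above the line and 10 below it.

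The 5 promoters called higher were of middle or low rank in WT. A percentile has room for a large rise only from such ranks, so this follows in part from the scale. KDM2A, which encodes a histone demethylase that binds unmethylated CpG DNA, stood at 22.4, 42.8 and 25.6 in WT, 33.8, 63.5 and 38.9 in heterozygous and 93.7, 86.2 and 89.7 in homozygous libraries. The difference from WT was 59.6 ± 11.2 points (SE, n = 3 and 3, limma adjusted p = 0.0482). CGN, for the tight junction protein cingulin, was at 26.4, 32.2 and 39.1 in WT, 46.0, 28.7 and 45.2 in heterozygous and 90.6, 92.4 and 91.9 in homozygous libraries, a rise of 59.1 ± 9.82 points (limma adjusted p = 0.036). At both genes the homozygous libraries lay above all other 6. EIF2S2, for a subunit of the translation initiation factor that brings the initiator tRNA to the ribosome, was at 51.4, 33.8 and 39.0 in WT, 44.6, 64.7 and 53.5 in heterozygous and 93.1, 93.6 and 95.1 in homozygous libraries, 52.5 points higher than WT (limma adjusted p = 0.0473). The region shared by SARM1, an enzyme of axon degeneration, and VTN, the adhesion protein vitronectin, rose by 51.3 points from 26.4, 39.0 and 28.7 to 80.9, 89.0 and 78.2. The region of B2M, the light chain of MHC class I, and of PATL2 was at 46.0, 46.4 and 61.5 in WT, 72.4, 86.7 and 77.6 in heterozygous and 92.5, 94.0 and 96.9 in homozygous libraries. Its heterozygous values lay between the others without overlap, but its heterozygous difference from WT did not pass (limma adjusted p = 0.831). Its joined windows also fell in step, from a mean of 3.67 in WT and 2.67 in heterozygous to 1 in homozygous libraries. Joined windows went from WT to homozygous from 4 to 3 at KDM2A, 2 to 1.33 at CGN and 2.67 to 2 at EIF2S2. At SARM1 they stayed at 1.67. Their part in these rises was not tested.

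The 10 promoters called lower were mostly near the top of the WT lists. A percentile has room for a large fall only from a high rank, so this too follows in part from the scale. GIMD1 fell from 86.0, 98.1 and 99.2 in WT to 41.2, 39.4 and 2.1 in homozygous libraries, with 99.4, 93.7 and 98.0 in heterozygous. Its difference was −66.8 ± 11.3 points (SE, n = 3 and 3, limma adjusted p = 0.036), and the authors' fold enrichment averaged 10.8 in WT and 4.83 in homozygous libraries. USP33, for a deubiquitinating enzyme, stood at 99.2, 99.1 and 93.9 in WT, 94.3, 88.7 and 83.9 in heterozygous and 14.5, 33.9 and 53.9 in homozygous libraries, −63.3 ± 10.5 points (limma adjusted p = 0.036). The midpoints of these regions lay 728 and 953 bp from the start site. GRB10, an adaptor of the insulin receptor, went from 81.2, 77.2 and 51.9 to 12.4, 5.4 and 19.1. SYNE2, for a nuclear envelope protein that links the nucleus to actin, went from 69.0, 71.3 and 62.0 to 10.7, 18.8 and 9.1. GRB10 and SYNE2 had 81.8% and 75.6% GC, unlike GIMD1 with 34.4% and USP33 with 46.0%.

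LINS1 went from 98.7, 96.9 and 98.6 in WT to 71.2, 66.8 and 38.6 in homozygous libraries, and GLRA3, a glycine receptor subunit, from 96.5, 98.7 and 94.5 to 55.4, 56.6 and 75.2. GTPBP8 fell by 30.7 points, from 97.6, 98.2 and 94.0 to 63.2, 76.7 and 57.9. HEPH, for the copper-dependent ferroxidase hephaestin of iron transport, had the smallest adjusted p. It was at 99.7, 99.6 and 98.4 in WT, 98.1, 95.7 and 97.2 in heterozygous and 82.9, 72.0 and 81.8 in homozygous libraries, −20.4 ± 3.04 points (SE, n = 3 and 3, limma adjusted p = 0.0321). ZNF253, a zinc finger gene, and GFM1, a mitochondrial translation elongation factor, fell by 18.3 and 13.5 points. At GFM1, chosen for mention after its values were seen, WT was 93.1, 94.9 and 97.7 and homozygous 82.8, 83.1 and 79.5. The standard errors at HEPH and ZNF253, 3.04 and 3.30 points, were below the median of 9.77. Joined windows averaged 2.33 and 2 in WT and 4 and 3.67 in homozygous libraries at GTPBP8 and ZNF253. At USP33 they were 1.33 and 1.67, at HEPH 2 in both, and at the rest of the promoters called lower they were fewer in homozygous libraries. Their part was not tested. At LINS1, GLRA3, GTPBP8, ZNF253 and GFM1 the heterozygous libraries stood between 94.0 and 98.9.

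**Figure D3:**
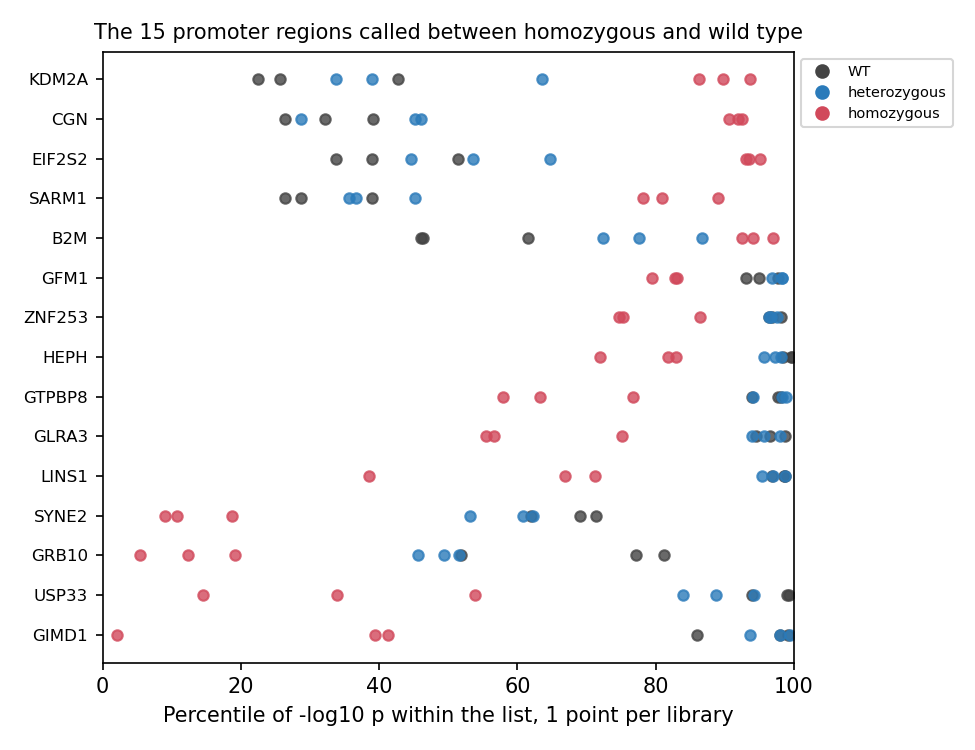
Percentile of −log10 p within the list (horizontal axis), 1 point per library, for the 15 promoter regions called between homozygous and WT, ordered by their difference. In every row the 3 red homozygous points lie to 1 side of the other 6, above them in the upper 5 rows and below them in the lower 10.

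The same comparison without a model counts promoters whose 3 homozygous values all lay to 1 side of the 3 WT values. At 1204 promoter regions (15.1%) all 3 were higher, against 12.3% over all 19254 regions. At 725 (9.11%) all 3 were lower, against 13.2%. Measured against all 6 other libraries, the 3 homozygous values were higher at 663 promoter regions (8.33%, against 6.94% over all regions) and lower at 399 (5.01%, against 7.35%). In distal regions the balance was the opposite, with 658 higher and 1005 lower. Whether the difference in balance exceeds the spread between libraries was not tested.

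Homozygous against heterozygous cells compares the edited lines with each other, and it shares the 3 homozygous libraries with the comparison above. limma called 24 promoter regions (0.301%), 13 higher and 11 lower, against 0.867% over all regions (167). These calls also changed with the libraries. Leaving out any 1 heterozygous library, WT library 1 or WT library 2 gave 0. Treating lists that share intervals as a block also gave 0, against 20 over all regions. Leaving out WT library 3 gave 5, against 55. Leaving out homozygous library 1, 2 or 3 gave 44, 31 and 46, of which 39, 25 and 33 were lower. Over all regions these gave 276, 234 and 355. On normal scores 89 were called, 65 higher and 24 lower, against 476 over all regions. With GC correction 68 were called, 26 higher and 42 lower, against 337. The median difference over promoters was 1.01 points, against −3.62 for distal regions. It changed sign to −0.749 with GC correction and to −0.635 with the 20000 strongest peaks. All 3 homozygous values were above the 3 heterozygous ones at 1095 promoter regions (13.8%, against 11.7% over all regions) and below them at 709 (8.91%, against 12.7%).

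Of the 13 higher, COL21A1, a collagen gene, had the largest difference. It was at 17.6, 42.6 and 18.1 in heterozygous, 94.8, 91.4 and 87.4 in homozygous and 51.0, 42.2 and 15.6 in WT libraries, a difference from heterozygous of 65.2 points (limma adjusted p = 0.0456). DRG1, a GTP-binding protein gene, was at 29.1, 11.1 and 19.2 in heterozygous and 79.98, 81.0 and 83.4 in homozygous libraries, 61.7 points higher (limma adjusted p = 0.0345). Its WT values of 43.4, 45.4 and 48.4 lay between the edited lines. ORAI1, the pore of the store-operated calcium channel, was at 2.5, 17.8 and 1.4 in heterozygous, 72.2, 61.7 and 61.1 in homozygous and 21.1, 30.2 and 14.6 in WT libraries. MYPOP, a Myb-related repressor, rose from 38.4, 15.7 and 15.4 to 87.5, 88.8 and 84.3, and KLK8, a secreted protease, from 21.1, 47.8 and 29.3 to 97.0, 87.3 and 92.1. YJU2B, ANGPTL6 and the shared region of MAST3 and IL12RB1 were 61.8, 56.3 and 56.8 points higher. CGN was 51.7 points higher, with a limma adjusted p of 0.047.

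The others of the 13 were MIEF1, a mitochondrial fission factor, MROH6, the shared region of C19orf73 and PPFIA3, and the zinc finger gene ZNF846, of which the first 3 were named after their values were seen. They were 55.4, 55.3, 54.4 and 51.5 points higher. Among the 11 lower, GIMD1 (−69.5 points), USP33 (−54.9), LINS1 (−38.2), GLRA3 (−33.5), GTPBP8 (−31.2), HEPH (−18.1), ZNF253 (−18.1) and GFM1 (−16.0) have been described against WT. The remaining 3 were C12orf40, NOSTRIN, which traffics endothelial nitric oxide synthase, and BRIP1, a DNA repair helicase that binds BRCA1. BRIP1 was at 87.1, 91.4 and 90.9 in heterozygous, 41.6, 51.9 and 46.5 in homozygous and 81.2, 76.8 and 92.5 in WT libraries, −43.1 points against heterozygous (limma adjusted p = 0.0489) and −36.8 against WT (0.0653). NOSTRIN was at 97.5, 94.9 and 89.2 in heterozygous and 31.6, 56.7 and 39.8 in homozygous libraries.

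Across both comparisons 30 of the 7961 promoter regions were called, 17 higher and 13 lower in the homozygous line. Singly the comparisons called 0.188% and 0.301% of promoters, below the 0.649% and 0.867% of all regions. The 17 higher had a median GC content of 68.2%, close to the 67.0% of all promoter regions. Of them 7 lay on chromosome 19, which holds 495 of the 7961. The 13 lower had a median of 55.0%, and 1 of them, ZNF253, lay on chromosome 19.

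Heterozygous and WT promoters could not be separated at this spread. limma called 0 promoter regions, as it called 0% of all 19254 regions. Without adjustment 359 promoter regions (4.51%) had a p under 0.05, against 5.75% of all regions. That number was 778 without WT library 3 and 624 without heterozygous library 1, and 160 to 215 without any 1 of the other 4 WT and heterozygous libraries. The 3 heterozygous values were all above the 3 WT values at 460 promoter regions (5.78%, against 5.64% over all regions) and all below at 409 (5.14%, against 6.04%). The median difference was 0.234 points, and −0.626 with GC correction. Because WT library 3 and heterozygous library 1 share intervals, this comparison holds less independent data than its 3 and 3 lists. Without both, 0 were called and 848 had an unadjusted p under 0.05. The lists left are then WT libraries 1 and 2 and heterozygous libraries 2 and 3, which also share intervals (1.31% and 0.298%). Their spread may be too small, so the 848, and likewise the 778 and 624, may be too high. Among promoters whose groups did not overlap, GTF2IRD1, a transcription factor gene, had the largest positive difference, from 23.6, 14.98 and 11.1 in WT to 41.5, 83.7 and 77.4 (51.0 points, limma adjusted p = 0.831). UTRN and TNFSF10, the death ligand TRAIL, followed with 47.3 and 46.9 points. The largest negative ones were PXN, the adhesion adaptor paxillin, at 69.8, 81.9 and 84.7 in WT and 34.9, 26.99 and 21.7 in heterozygous libraries, then CLIC1 (−50.1 points) and BRWD1 (−47.5). Joined windows at PXN, CLIC1 and BRWD1 averaged 1.33, 1 and 1.67 in WT and 2.67, 1.33 and 5.33 in heterozygous libraries. At GTF2IRD1, UTRN and TNFSF10 they averaged 2.67, 2 and 2 in WT and 1.67, 1.33 and 1.67 in heterozygous libraries. Their part was not tested.

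Differences between homozygous and WT promoters were uneven along the genome. On chromosome 17 the median difference was 12.7 points over 297 promoter regions, on chromosome 22 it was 11.3 over 112 and on chromosome 19 it was 10.9 over 495. Chromosomes 16, 20, 15 and 21 followed with 7.61, 6.88, 5.45 and 4.76, and the medians of the other 16 chromosomes lay between −2.26 (X) and 3.61 (chromosome 9). The 1718 promoter regions on chromosomes 15 to 17 and 19 to 22, grouped after their values were seen, had a median difference of 9.21 points. Of these, 474 (27.6%) were higher in all 3 homozygous libraries and 74 (4.31%) lower. For the other 6243 the median was 0.32, with 730 (11.7%) higher and 651 (10.4%) lower.

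The library medians by group of chromosomes were as follows. On the 7 chromosomes they were 68.2, 68.0 and 67.2 in WT, 66.9, 69.8 and 67.4 in heterozygous and 79.9, 81.2 and 74.9 in homozygous libraries, without overlap. On the others they were 78.5, 77.9 and 78.7 in WT and 80.8, 81.6 and 77.0 in homozygous libraries, with overlap. The 7 were grouped by these same differences, so the separation on them and the overlap on the others follow in part from the choice. In these values promoters on the 7 chromosomes stood below the rest in WT and nearer to them in the homozygous line. Heterozygous minus WT medians lay between −1.69 (chromosome 19) and 1.22 (chromosome 15) on all 23 chromosomes. Distal regions on chromosomes 19, 22, 17 and 16 also had positive medians, of 13.3, 4.95, 4.41 and 1.49 points, while those on chromosomes 15, 20 and 21 had −0.546, −1.45 and −0.495. After GC correction chromosomes 17, 19 and 22 stood at 9.30, 8.44 and 8.04. The number of copies of each chromosome in each line was not measured here, and its part in these differences was not tested.

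**Figure D4:**
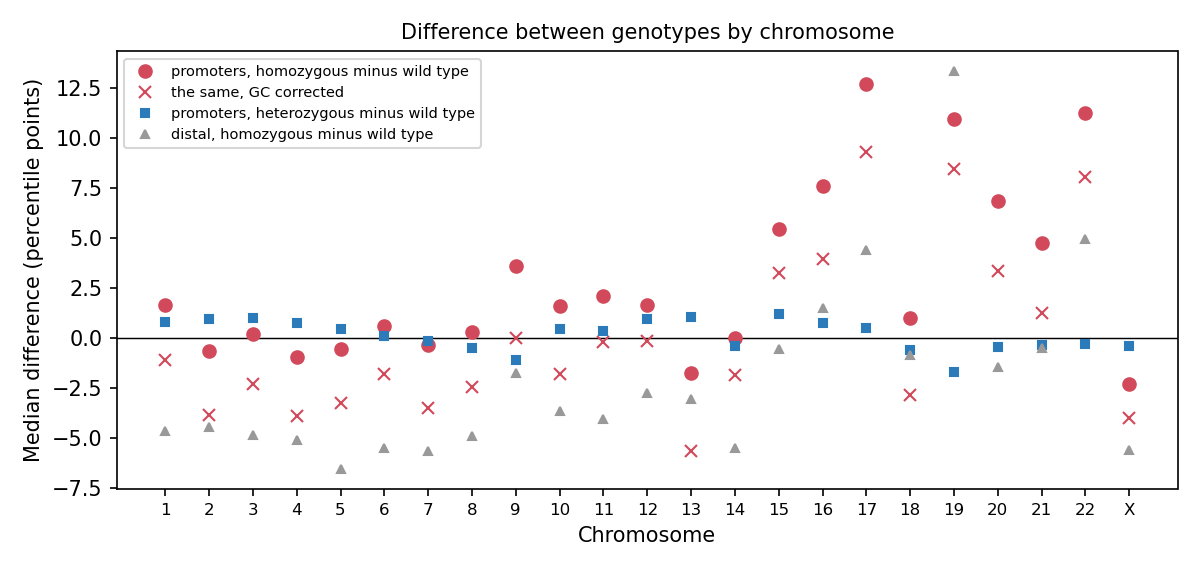
Median difference in percentile points between genotypes (vertical axis) for each chromosome (horizontal axis). Red circles are promoter regions, homozygous minus WT, and red crosses the same after GC correction. Blue squares are promoters, heterozygous minus WT, and grey triangles distal regions, homozygous minus WT. Red circles reach 12.7, 10.9 and 11.3 on chromosomes 17, 19 and 22, whereas blue squares lie between −1.69 and 1.22 throughout.

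The difference also varied with sequence and strength. In 5 bins of rising GC content, the median homozygous minus WT difference was −0.503, 1.01, 1.87, 2.39 and 3.90 points. Chromosomes 16, 17, 19 and 22 were grouped after their values were seen, because they had the largest medians. Their promoters had medians of 8.73 to 15.1 in the 5 bins. The other chromosomes, here including 15, 20 and 21, had −1.20 to 2.63. The choice of chromosomes favoured this direction, so these values are a description. Promoters with a mean percentile of 25 to 50 had a median of 10.6 points, those of 50 to 75 had 5.41, and those of 90 to 100 had −0.582. Promoters with the SP and KLF motif had a median of 2.52 points and those without it 0.047, while their GC contents were 69.4% and 63.4%. The number of joined windows moved with the difference as well. At 2918 promoters with at least 0.5 fewer windows in the homozygous libraries the median was 4.68 points, at 1823 with at least 0.5 more it was −1.80, and at the other 3220 it was 0.702. Corrected for window number, the median over all promoters was 0.736 in place of 1.66 points.

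A constitutive promoter region was more frequent in several lists of housekeeping genes than among coding genes as a whole. Lists of genes were chosen with earlier results of these data known, so they are described by counts and medians only. Of 87 ribosomal protein genes 63 had a constitutive promoter region, of 77 mitochondrial ribosomal protein genes 64, of 48 proteasome genes 37, of 32 core spliceosome genes 26, of 37 genes of the replication origin and fork 32, and of 20 genes of cholesterol synthesis 19. The shares were 72.4%, 83.1%, 77.1%, 81.2%, 86.5% and 95.0%, against 44.4% of all coding genes. Replication-dependent histone genes (20 of 64), which lack polyadenylated transcripts, and AP-1 family genes (7 of 14) had 31.2% and 50%, and a further 8 histone genes lay in regions of 2.5 kb or more. In 17 of the 18 lists, 0 members were called in any comparison. Of all promoters only 0.188% were called against WT and 0.301% against heterozygous, so 0 calls in a short list says little. The exception was the list of 508 numbered ZNF genes, 298 of them with a region. There 1 was called lower against WT (ZNF253), and 1 higher (ZNF846) and 1 lower (ZNF253) against heterozygous.

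Among genes of translation, the 63 ribosomal protein promoters had a median homozygous minus WT difference of 5.005 points, 10 higher and 4 lower in all 3 libraries. These counts are 15.9% and 6.35% of the 63, near the 15.1% and 9.11% over all promoters. RPL18, in 1 region with SPHK2 on chromosome 19, was at 16.6, 32.7 and 41.4 in WT and 77.6, 86.7 and 73.7 in homozygous libraries (49.1 points, limma adjusted p = 0.0566). RPL14 had the lowest difference, −15.3 points. Mitochondrial ribosomal proteins had a median of 2.54, with 10 higher (15.4%) and 1 lower (1.54%), and extremes at MRPL45 (48.2 points, on chromosome 17) and MRPL22 (−40.9). Of the transfer RNA synthetases, 18 of 20 had a region, with extremes at GARS1 (35.9) and WARS1 (−30.4). Respiratory complex I promoters had a median of −0.505, from NDUFA6 (26.7) to NDUFB5 (−30.2).

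Among genes of transcription and splicing, RNA polymerase II and its general factors had a median of −0.093 points. Of their regions 6 were higher and 6 lower in all 3 homozygous libraries (16.2% each, against 15.1% and 9.11% over all promoters). Here GTF2H2, a TFIIH subunit with near-identical gene copies in which peaks may be misplaced, was the highest at 48.6, and MNAT1, the assembly factor of the TFIIH kinase, the lowest at −48.9. MNAT1 was at 69.2, 72.1 and 80.9 in WT and 26.97, 11.4 and 37.2 in homozygous libraries (limma adjusted p = 0.0592). Mediator, which links activators to the polymerase, had a median of 5.16. Its highest member MED1, on chromosome 17, was at 18.4, 31.8 and 1.8 in WT and 71.8, 72.4 and 45.3 in homozygous libraries, and its lowest was MED13L (−27.6). Core spliceosome promoters had a median of 8.67, with extremes at SNRPB (32.0) and SNRPB2 (−33.7), both on chromosome 20. Genes of the factors that bind such promoters (22 of 27) had 9.52, with 8 of 25 regions higher (32%) and 1 lower (4%), and extremes at 1 of the YY1 regions (41.9) and at GABPB1 (−13.9).

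Among genes of protein quality and cell division, chaperonin and heat shock promoters had a median of 7.39 points, with 8 of 23 regions higher in all 3 homozygous libraries (34.8%) and 0 lower. A region of HSP90AA1, shared with WDR20, was at 9.1, 16.8 and 45.5 in WT and 66.7, 79.7 and 66.2 in homozygous libraries, and HSPB1 had the lowest difference (−21.5). Proteasome promoters had a median of 1.51, from PSMD4 (35.5) to PSMD6 (−43.0). PSMD6, a subunit of the proteasome lid, was at 81.5, 76.0 and 69.0 in WT and 39.3, 32.3 and 25.99 in homozygous libraries (limma adjusted p = 0.0695). Replication genes had a median of 3.05, with MCM5, a subunit of the replicative helicase, the highest at 42.8 and GINS1 the lowest at −21.0. For all promoters the median was 1.66, with 15.1% higher and 9.11% lower in all 3 homozygous libraries.

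The promoters of cohesin and its regulators bear on the edited gene. Of 15 such genes 14 had a constitutive region, and 0 were called in any comparison. The shares called over all promoters were 0.188% against WT and 0.301% against heterozygous. STAG2 itself (chrX:123096626-123097314) was at 91.0, 92.0 and 97.3 in WT, 97.5, 95.4 and 85.6 in heterozygous and 76.2, 72.0 and 80.6 in homozygous libraries. All 3 homozygous values lay below the other 6, with a difference of −17.2 points from WT, but the test did not pass (limma adjusted p = 0.0874). A promoter signal says nothing about whether the edit, which lies in the coding sequence, is present. STAG1, the paralogous cohesin subunit, was at 87.0, 89.99 and 64.7 in WT, 69.9, 71.0 and 60.4 in heterozygous and 98.8, 85.6 and 93.0 in homozygous libraries, with overlap between WT and homozygous. The ring subunits SMC1A, SMC3 and RAD21 differed by 2.98, 2.76 and −3.41 points, less than their standard errors of 6.85, 9.55 and 3.90. The region of CDCA5, for the cohesion factor sororin, and ZFPL1 had the highest difference (35.3 points, limma adjusted p = 0.153). HDAC8, the deacetylase of SMC3, had the lowest (−27.5, limma adjusted p = 0.322).

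The homozygous cells grew attached, and 21 of 36 genes of actin, adhesion and the YAP pathway had a constitutive promoter. Their 22 regions had a median homozygous minus WT difference of 3.53 points, and 0 were called, against 0.188% of all promoters. In all 3 libraries 5 were higher (22.7%) and 1 lower (4.55%), against 15.1% and 9.11% over all promoters. ACTN4, an actin crosslinker on chromosome 19, was at 59.99, 66.5 and 38.7 in WT, 41.7, 70.7 and 35.9 in heterozygous and 94.8, 97.2 and 91.6 in homozygous libraries (39.5 points, limma adjusted p = 0.117). ITGB1, the common beta subunit of many matrix integrins, had the lowest difference (−20.7). AP-1 family promoters had a median of −0.445, with 0 of 7 separated in either direction, and extremes at FOSB (10.3) and FOSL1 (−24.2). Of the K562 markers, 7 had a constitutive region, and 0 of them were called or separated between homozygous and WT. The fetal globin promoter HBG1 was at 95.4, 61.6 and 94.9 in WT and 66.8, 91.3 and 63.5 in homozygous libraries. TAL1 was at 76.5, 76.8 and 79.6 in WT and 94.4, 91.6 and 63.9 in homozygous libraries, and TFRC, the transferrin receptor, at 51.0, 53.0 and 84.2 and at 66.6, 74.2 and 73.6. HBG1 and HBG2 are near-identical in sequence, so their values are uncertain.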

How the data were processed

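ATAC-seq libraries of 3 K562 genotypes, 3 per genotype, were used as 9 peak lists, 1 per library. Per the submitters' processing notes, cutadapt, Bowtie2 2.2.9, Picard and MACS2 2.1.0 and the builds hg19 and GRCh37 were used; their settings, and any shift of reads for Tn5, are not given in the sources used here. The authors deposited for each peak a linear fold enrichment (a ratio), a −log10 p and a −log10 q, beside a display score and a summit offset that were not used as measurements. Most deposited intervals were windows of 500 bp, and overlapping windows had been joined with averaged values, which can lower the rank of a broad promoter. The lists hold no counts, so depth is unknown.

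The percentile of −log10 p among the 50000 strongest peaks was computed per list and region, with tied values sharing a rank. limma 3.58.1 (R 4.3.3, with a mean-variance trend) was fitted to all 19254 regions found in all 9 lists with Benjamini-Hochberg adjustment, and was checked on simulated data. Start sites came from GENCODE 44 mapped to GRCh37, GC content from the GRCh37 sequence, and coordinates count from 1. The members, gene lists and tests were chosen with earlier results of these data known. Genes were named by rule: the 8 largest called differences per comparison and direction (the 3 largest without overlap where none was called), the 6 strongest and 6 least variable promoters, the extremes and calls of each of 18 gene lists, 3 regions on each side of each limit, and the cohesin and K562 lists. Of the printed sequences, those of GRB10, SYNE2, KIAA1217, PNPLA6 and PEX5L were replaced by the next by rule. A sequence and a marker gene are not reported here. Alternatives covered list length, overlap, ranking, scaling, distance, width, GC content, shared lists, replicates and joined windows.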

Additional observations from a re-analysis of the deposited data

How the results depend on the processing

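The promoters called for homozygous against WT (15) and against heterozygous (24) depended on most settings, and heterozygous against WT gave 0 in every setting. The counts, in that order, were 0 and 6 with the 20000 strongest peaks, 40 and 55 with 100000, 5 and 1 with a −log10 q of at least 5, 0 and 0 when ranked by fold enrichment, 70 and 89 on normal scores, 91 and 93 without the trend, 0 and 0 when only the genotypes compared were fitted, 89 and 68 with GC correction, 0 and 0 with lists that share intervals as a random block, and 0 and 0 without WT library 3 and heterozygous library 1 together. In the same order, the counts over all regions were 7 and 25, 422 and 546, 28 and 16, and 5 and 4. Then came 423 and 476, 341 and 361, 0 and 0, 387 and 337, 0 and 20, and 0 and 0. The settings with 20000, 100000 and a −log10 q limit tested 3389, 10293 and 5525 promoters among 6164, 33024 and 10754 regions. The rest of these settings tested 7961 promoters among 19254. The homozygous libraries against 4 other sources gave 0. Chosen after seeing the data, a correction for joined windows gave 93 and 116, against 378 and 535 over all 19254 regions. The 78 promoters with the same number of windows in all 9 lists gave 6 and 12. All 1395 regions with the same number gave 126 and 200, so these counts are not particular to promoters. Leaving out 1 library gave 0 to 47 and 0 to 46. At an unadjusted p under 0.05 there were 1292 promoters for homozygous against WT (16.2%, against 20.04% of all regions), 830 with the random block and 894 on fold enrichment. A requirement of 250 bp of overlap, averaging over peaks, subtracting library medians, 500 bp to a start site and a width under 1500 bp kept both counts within 1.5 times.

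With the replicate block the counts were 0 and 0, and with the block and GC correction 7 and 0. Whether libraries of the same number share more than a number is not known, and the labels name no batch. Correlations of their deviations lay between −0.277 and 0.132, against −0.265 to 0.388 for different numbers. The 0.388 is that of WT library 3 and heterozygous library 1, which share intervals. The correlations also depend on one another, so they cannot settle the question. The median difference over promoters, 1.66 for homozygous against WT, was −1.02 with GC correction, with and without the block, and 0.939 to 2.96 without 1 library. For homozygous against heterozygous it was 0.527 to 2.38 and for heterozygous against WT 0.0993 to 0.484 without 1 library. With GC correction these were −0.749 and −0.626, with and without the block. The first was also below 0 with the 20000 strongest peaks (−0.635). The second was also below 0 when corrected for joined windows (−0.681), with the same number of windows (−0.498), under 1500 bp (−0.0347) and with the random block (−0.00313). Of the single promoters, PEX5L reversed, from −0.194 to 8.69 points, with GC correction and with the block and GC correction. It has 34.2% GC and lies near the top of the lists. The correction subtracts the library median of regions of like GC content, so such a region can move without a change of its own. The cause of these changes was not tested.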

Other observations

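Motif content and strength were compared over the promoters as a description. Promoters with the NFY motif had a median mean percentile of 79.9, against 73.4 without it, and a median range over libraries of 30.3 points. The 50 promoters with the ZNF143 motif ACTACAATT stood at 83.6, against 74.9 without it. With a TATA-box the median was 71.4, against 75.1 without it, and the range 39.2 points. The GATA motif went with a median homozygous minus WT difference of −1.38 points, against 1.78 without it, and with 58.8% GC against 67.4%.

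The 254 regions of 2.5 kb or more had medians of 66.8 to 70.9 in WT and 65.3 to 75.03 in homozygous libraries, and 0 of them were called. The peak lists limit all of this: they hold no counts, ranks within a list show no absolute change in accessibility, and a rise of some peaks lowers the rank of others. Each genotype is 1 line, and 3 lists per genotype, some sharing intervals, leave a median standard error of 9.77 points per promoter.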
